A study of Mus musculus with 6 samples.

Results

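NF-kB is a family of DNA-binding subunits held in check by inhibitor proteins, and its members were followed in haematopoietic stem cells (HSC) with reduced PU.1. The rule took every probe set whose 1 platform gene symbol is Nfkb1, Nfkb2, Rel, Rela, Relb, Nfkbia, Nfkbib, Nfkbie, Tnfaip3 or Bcl3. It found 17 probe sets of 9 genes among the 44991 probe sets of the value table, and Nfkb1 was not analysed here. The study compared flow-sorted bone marrow HSC of 3 PU.1 knockdown (PU.1 KD) and 3 wildtype (WT) mouse pools, each on its own Affymetrix whole-genome expression array. A pool joined 3 animals, and its RNA was amplified in 2 rounds. Spi1 is the gene of PU.1, an ETS-type DNA-binding protein on which myeloid cells and B cells depend. Not given in the sources used here are strain, age, sex, sort markers and the way PU.1 was reduced.

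In resting cells IkB proteins such as those made from Nfkbia, Nfkbib and Nfkbie hold dimers of Rela, Rel and the Nfkb1 product in the cytoplasm. Signals from TNF, IL-1 or Toll-like receptors activate the IKK kinase complex, IkB is degraded, and the freed dimers switch on genes that include Nfkbia and Tnfaip3, which in turn shut the signal off. A slower branch runs through the kinase Map3k14 and dimers of Relb with the product of Nfkb2. In blood-forming cells NF-kB is known for inflammatory responses and for the survival of lymphoid cells.

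Because several NF-kB genes are known targets of NF-kB itself, the kB motif was looked up in their promoters, taken from RefSeq on GRCm38.p6 as 250 bases before to 50 bases after each annotated start. Of the 10 genes, 8 were in that table, all but Nfkb1 and Relb. The kB consensus, searched on both strands, was found for 6 of the 8, namely Nfkb2, Rel, Nfkbia, Nfkbie, Tnfaip3 and Bcl3, against 5.14% of all 27025 genes of the table and 4.51% of all 32851 promoters. It had no match in the windows of Rela and Nfkbib. The PU.1 box GAGGAA had a match in 1 of the 8, Rel, against 31.3% of all genes and 28.3% of all promoters. The AP-1 motif TGANTCA had a match in 3, Nfkb2, Nfkbie and Tnfaip3, against 8.97% of all genes and 7.81% of all promoters. Matches describe letters and do not show that a factor binds there. Nfkb2 and Tnfaip3 have more than 1 start in the table, which gives them more bases to search.

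The 160 bases before the start are printed for Nfkbia and Nfkbie, the inhibitors that the results turn on, and windows of 30 bases around each match for the others, which gives Nfkb2 and Tnfaip3 more than 1 window. All are written 5′ to 3′ on the gene's strand, with the kB match in capitals, also where it lies on the opposite strand.
Nfkbia, chr12:55492648-55492807, minus strand: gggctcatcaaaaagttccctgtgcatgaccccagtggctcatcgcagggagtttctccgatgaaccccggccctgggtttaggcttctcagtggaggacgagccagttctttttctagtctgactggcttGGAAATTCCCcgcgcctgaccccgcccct
Nfkbie, chr17:45555540-45555699, plus strand: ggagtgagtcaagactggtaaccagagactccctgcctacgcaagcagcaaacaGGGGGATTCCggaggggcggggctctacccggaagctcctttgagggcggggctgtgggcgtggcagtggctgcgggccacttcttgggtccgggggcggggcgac
Nfkb2, chr19:46304688-46304717, plus strand: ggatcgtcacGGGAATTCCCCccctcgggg
Nfkb2, chr19:46304716-46304745, plus strand: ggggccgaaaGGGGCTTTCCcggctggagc
Nfkb2, chr19:46305449-46305478, plus strand: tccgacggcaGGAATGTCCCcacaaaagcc
Nfkb2, chr19:46305695-46305724, plus strand: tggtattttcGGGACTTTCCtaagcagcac
Rel, chr11:23771042-23771071, minus strand: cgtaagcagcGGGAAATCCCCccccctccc
Tnfaip3, chr10:19015516-19015545, minus strand: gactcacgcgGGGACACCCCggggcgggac
Tnfaip3, chr10:19015403-19015432, minus strand: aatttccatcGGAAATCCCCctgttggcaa
Bcl3, chr7:19822734-19822763, minus strand: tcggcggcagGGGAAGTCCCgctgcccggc

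The match lay 29 to 20 bases before the start of Nfkbia and 106 to 97 bases before that of Nfkbie, and in the window of Nfkbie an AP-1 match stood 156 to 150 bases before the start. In Rel and in the first window of Nfkb2, overlapping matches on both strands made up the capitals shown. Bcl3 had its match just inside the transcribed part, from base 3 to base 12.

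**Figure D1:**
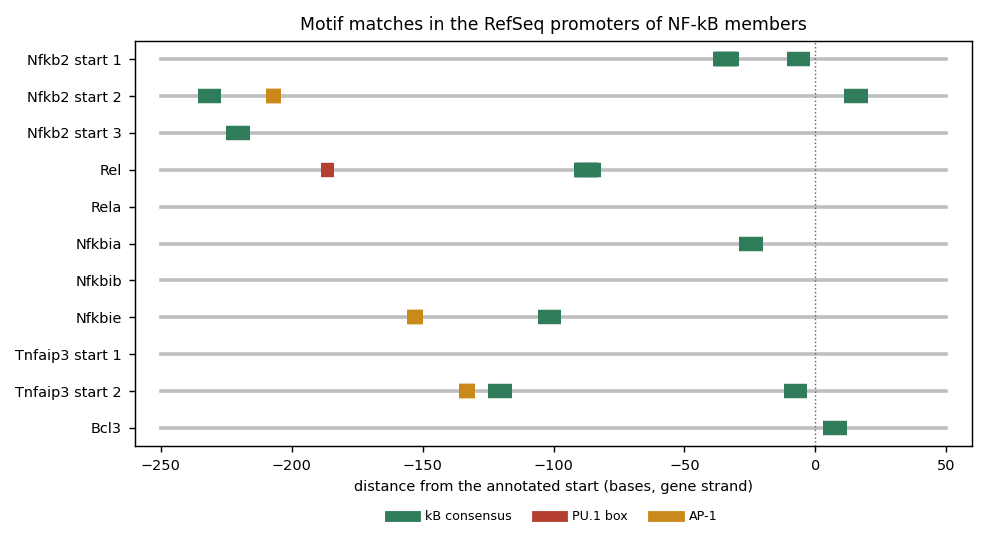
Positions of motif matches relative to the annotated start, in bases on the gene's strand, in the RefSeq promoters of the 8 members found in the table; each grey line is 1 promoter and each block a match on either strand. The kB consensus is seen for 6 of the 8 genes, with none in the windows of Rela and Nfkbib, and the PU.1 box for Rel.

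Before the results, the arrays were checked. Array medians were 81.4 to 89.0 intensity units in the PU.1 KD pools and 90.0 to 91.5 in the WT pools, and 0 member values were at the floor. Spi1 had an intensity of 362, 360 and 119 in PU.1 KD pools 1, 2 and 3, against 1120, 718 and 1053 in WT pools 1, 2 and 3. All 9 HSC and progenitor markers measured lay above the median of all probe sets. Of 10 neutrophil and monocyte markers 9 also did, as did all 4 erythroid markers. Of 7 megakaryocyte and platelet markers 1 lay below it, and of 6 B lymphoid markers 1. Lying above that median therefore does not tell these cell types apart. WT pool 2 stood apart, with the highest HSC marker mean (10.29 beside 9.43 and 9.60 on the log2 scale) and the lowest neutrophil and monocyte mean (10.11 beside 11.57 and 11.06). In pooled RNA, fewer cells of a type and less RNA per cell cannot be told apart.

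Nfkbie, which encodes the inhibitor IkB-epsilon, had the largest difference of the family. The second inhibitor Nfkbia had a lower mean on the 5 probe sets that measure it, with differences from -0.44 to -0.10. On the probe set at -0.10 (SE 0.15) the groups overlapped. Bcl3, an atypical IkB protein that works in the nucleus, went the other way (0.50, SE 0.20), with groups that overlapped as deposited. The main activating subunit Rela differed by 0.15 (SE 0.13). Differences below are PU.1 KD minus WT of the quantile normalised log2(intensity + 16), given with their standard error (SE) from limma for 3 pools per group. No member passed the limma test after Benjamini-Hochberg adjustment over all probe sets: 0 of 17, with a smallest adjusted p of 0.501. Of all 44991 probe sets 0, or 0%, passed.

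Among 17 member probe sets 13 had a lower and 4 a higher mean in the PU.1 KD pools, where 21737 of all 44991 probe sets had a lower mean. Of the 13, 5 were probe sets of Nfkbia and 2 of Nfkbie. At an unadjusted limma p under 0.05 there were 5 lower and 1 higher, where 3.33% of all probe sets were lower and 3.78% higher by that rule. The 5 were both probe sets of Nfkbie and 3 of Nfkbia, so they stand for 2 genes, and the 1 higher was Bcl3. The count of 5 became 3 without WT pool 2, without PU.1 KD pool 3, or with arrays centred on their medians. The median difference of the 17 was -0.22, beside 0.0090 over all probe sets. The groups did not overlap for 6 lower and 2 higher member probe sets, against 5.26% and 7.59% of the table. On the intensities as deposited they did not overlap for 5 lower and 0 higher, against 7.97% and 5.09% of the table.

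**Figure D2:**
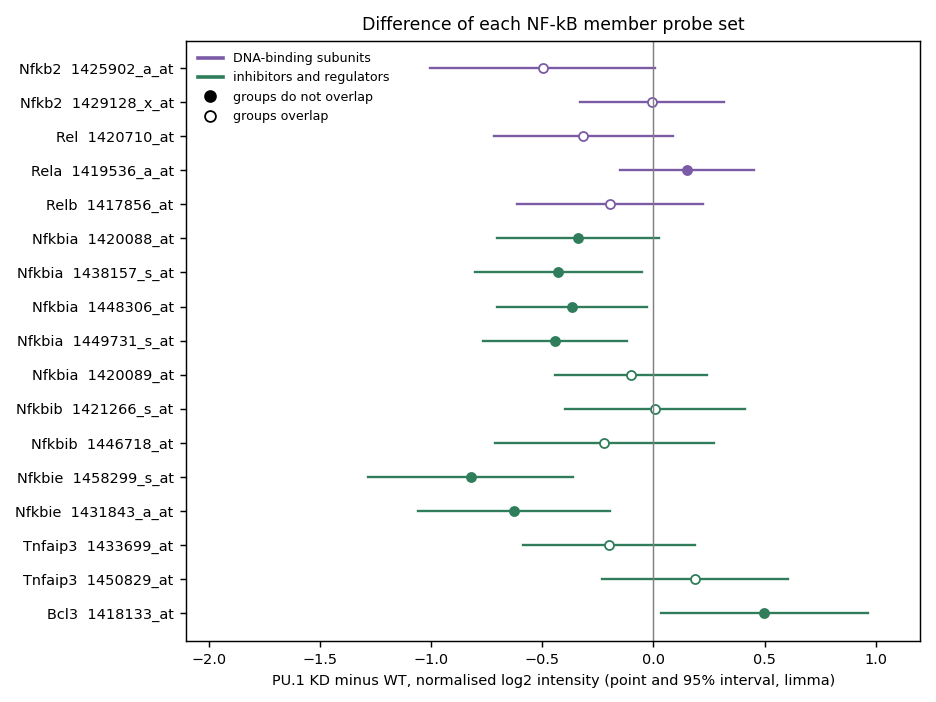
Difference of each member probe set, PU.1 KD minus WT, in normalised log2 intensity, as a point with its 95% limma interval; colour gives the role and a filled point means that the 3 PU.1 KD and 3 WT values do not overlap. Both Nfkbie intervals and 3 of the 5 Nfkbia intervals lie below 0, and that of Bcl3 lies above 0.

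The DNA-binding subunits were examined first. Rela encodes the activating partner of the most common NF-kB dimer, and its intensity on 1419536_a_at was 1420, 1621 and 1625 in PU.1 KD pools 1, 2 and 3, against 1394, 1591 and 1333 in WT pools 1, 2 and 3. These deposited values overlap, whereas after normalisation the PU.1 KD pools lay just above the WT pools (10.61, 10.65 and 10.64 against 10.44, 10.58 and 10.42). The difference of 0.15 (SE 0.13) had a 95% interval of -0.15 to 0.45 and a limma adjusted p of 0.846.

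Nfkb2 encodes a precursor that is cut to a DNA-binding subunit and, uncut, acts as an inhibitor itself. On 1425902_a_at it had an intensity of 72.1, 135 and 86.6 in the PU.1 KD pools, against 169, 158 and 125 in the WT pools. PU.1 KD pools 1 and 3 were below every WT pool and PU.1 KD pool 2 was above WT pool 3, so the groups overlapped. The difference was -0.50 (SE 0.22, 95% interval -1.003 to 0.0063), with a limma adjusted p of 0.708 and an exact permutation p of 0.2. With 1 array left out the difference ran from -0.72 without PU.1 KD pool 2 to -0.36 without PU.1 KD pool 1, and the mean over both probe sets of the gene was -0.25. The dimmer probe set 1429128_x_at, with intensities of 47.1 to 57.0 in the PU.1 KD pools and 52.8 to 57.5 in the WT pools, differed by -0.0069 (SE 0.14), and this sign turned when arrays were centred on their medians. The suffix x marks a probe set whose probes can bind other transcripts too. Binding to other transcripts was not tested for any member probe set, those of Nfkbie and Nfkbia included.

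Rel, the subunit best known from lymphoid cells, was dim, at 23.6, 34.3 and 22.9 in the PU.1 KD pools and 40.5, 44.8 and 31.6 in the WT pools. PU.1 KD pool 2 exceeded WT pool 3, and the difference of -0.31 (SE 0.17) had an adjusted p of 0.762 in limma. It ran from -0.44 without PU.1 KD pool 2 to -0.23 without WT pool 2. Relb, the partner of the Nfkb2 product, had intensities of 61.8, 61.1 and 64.4 in the PU.1 KD pools, against 70.5, 106 and 63.6 in the WT pools. WT pool 2 alone stood above the rest there, and the difference was -0.19 (SE 0.18), which became -0.018 without WT pool 2 and -0.31 without WT pool 3.

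Nfkbie was lower in all PU.1 KD pools on both of its probe sets. Its intensity on 1458299_s_at was 145, 204 and 139 in PU.1 KD pools 1, 2 and 3, against 275, 401 and 276 in WT pools 1, 2 and 3. The groups did not overlap, with PU.1 KD pool 3 lowest and WT pool 2 highest. The difference of -0.82 (SE 0.20, 95% interval -1.28 to -0.36) put the PU.1 KD level at 0.566 of WT on the log2(intensity + 16) scale. Permuting the pools exactly gave p = 0.1, and 3 against 3 pools cannot go lower, while the limma p of 0.00352 became 0.501 after adjustment over all probe sets.

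The second probe set of Nfkbie, 1431843_a_at, had intensities of 139, 154 and 104 in the PU.1 KD pools, against 206, 261 and 216 in the WT pools. Here too the groups did not overlap, PU.1 KD pool 3 was lowest and WT pool 2 highest. The difference was -0.63 (SE 0.19, 95% interval -1.06 to -0.20), or 0.647 of the WT level, with a limma p of 0.00998 and an adjusted p of 0.569. Under all 16 alternatives run, including each array left out in turn, both probe sets kept their sign and an unadjusted p under 0.05. With 1 array left out their differences ran from -0.96 to -0.68 on 1458299_s_at and from -0.72 to -0.45 on 1431843_a_at. Both probe sets measure 1 gene in the same RNA, so they are no independent samples.

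Nfkbia encodes IkB-alpha, the inhibitor that NF-kB induces within minutes of a signal. Its brightest probe set, 1420088_at, had intensities of 3145, 4214 and 3933 in the PU.1 KD pools, against 4809, 5088 and 4185 in the WT pools. PU.1 KD pool 2 was above WT pool 3 as deposited and below it after normalisation, where the groups no longer overlapped. The difference of -0.34 (SE 0.16, 95% interval -0.70 to 0.024) put the PU.1 KD level at 0.791 of WT, with a limma adjusted p of 0.721.

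On 3 further Nfkbia probe sets the groups did not overlap on either scale. The intensity on 1449731_s_at was 731, 935 and 853 in the PU.1 KD pools, against 1117, 1368 and 1126 in the WT pools. That probe set differed by -0.44 (SE 0.14, 95% interval -0.77 to -0.12), or 0.735 of the WT level, and kept an unadjusted p under 0.05 in all 16 alternatives run. Probe set 1438157_s_at differed by -0.43 (SE 0.16) and 1448306_at by -0.37 (SE 0.15), with limma adjusted p of 0.674 and 0.676. These kept an unadjusted p under 0.05 in 11 and 9 of the 16 alternatives. PU.1 KD pools averaged 1767 ± 357 and WT pools 2409 ± 245 on 1438157_s_at (SD, n = 3 each). For 1448306_at the averages were 1071 ± 87.9 and 1435 ± 150.1 in the PU.1 KD and WT pools (SD, n = 3 each).

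The fifth Nfkbia probe set, 1420089_at, was dim at 87.9 to 123 in the PU.1 KD pools and 111 to 127 in the WT pools. The groups overlapped on it and the difference was -0.10 (SE 0.15). Leaving out 1 array moved that value, to -0.039 without PU.1 KD pool 1, -0.052 without WT pool 1 and -0.19 without PU.1 KD pool 3. WT pool 2 was the highest array on 4 of the 5 Nfkbia probe sets, and PU.1 KD pool 1 was the lowest on 3. Averaging the log2 values of all 5 before the fit gave a difference of -0.34 (SE 0.12), with an adjusted p of 0.540 over all genes in limma.

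Nfkbib encodes IkB-beta, whose gene is less responsive to NF-kB than Nfkbia. On 1421266_s_at its intensity was 327, 384 and 340 in the PU.1 KD pools, against 457, 323 and 338 in the WT pools. WT pool 1 alone stood out, and the other 5 pools lay close together. The difference was 0.0062 (SE 0.17, 95% interval -0.40 to 0.41), and its sign turned with the values as deposited (-0.072) and with array weights (-0.042). The dim probe set 1446718_at had 42.9 to 44.7 in the PU.1 KD pools and 37.7 to 80.0 in the WT pools, a difference of -0.22 (SE 0.21). That value rested on the WT pools, at -0.023 without WT pool 3 and -0.43 without WT pool 1.

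Tnfaip3 encodes an enzyme that edits ubiquitin chains and ends signalling towards IKK. On 1433699_at it had intensities of 192, 299 and 291 in the PU.1 KD pools, against 289, 330 and 324 in the WT pools. PU.1 KD pool 1 was the low value and the other 5 pools were near each other. The difference was -0.20 (SE 0.17, 95% interval -0.59 to 0.19) and became -0.057 without PU.1 KD pool 1. The dim probe set 1450829_at, at 40.9 to 57.6 in the PU.1 KD pools and 33.02 to 54.2 in the WT pools, differed by 0.19 (SE 0.18). It differed by 0.044 without WT pool 2 and 0.30 without PU.1 KD pool 2. The mean of both Tnfaip3 probe sets differed by -0.0074.

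Bcl3 had 1 probe set, 1418133_at, with intensities of 89.5, 103 and 156 in PU.1 KD pools 1, 2 and 3, against 97.7, 77.4 and 68.0 in WT pools 1, 2 and 3. PU.1 KD pool 3 was the highest and WT pool 1 lay above PU.1 KD pool 1 as deposited, though just below it after normalisation. The difference was 0.50 (SE 0.20, 95% interval 0.033 to 0.96), 1.41 times the WT level, with a limma p of 0.0387 and an adjusted p of 0.682. Leaving out PU.1 KD pool 3 brought it to 0.32 and the unadjusted p to 0.135, and the values as deposited gave 0.42 with an unadjusted limma p of 0.0900. PU.1 KD pool 3 was also the array with the least Spi1 and the least Nfkbie. Among the WT pools the order was the other way, as WT pool 2 had the least Spi1 and the most Nfkbie. A relation between the levels of Spi1 and Nfkbie was not tested.

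**Figure D3:**
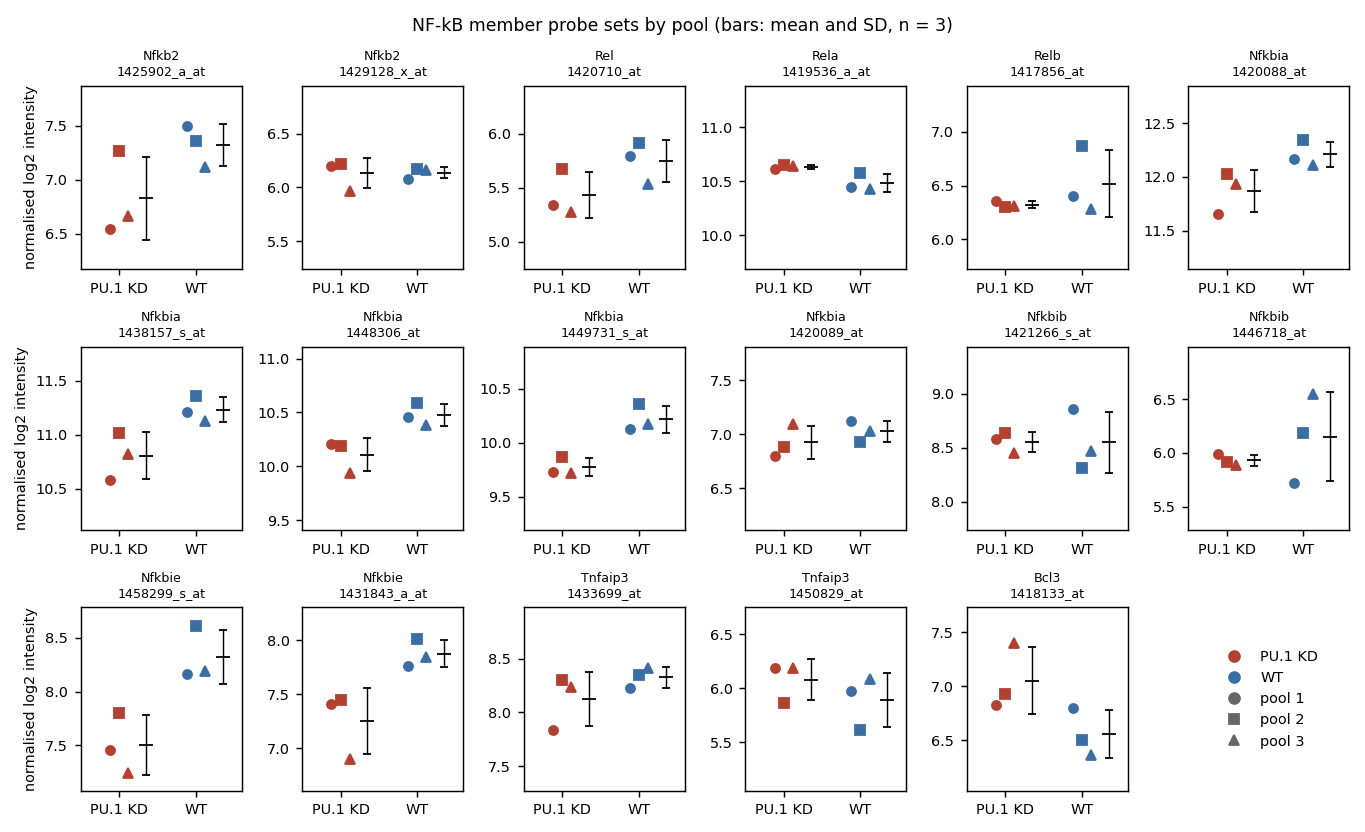
Normalised log2 intensity of the 17 member probe sets in each pool, PU.1 KD left and WT right, with mean and SD (n = 3); each panel spans the same log2 range. PU.1 KD values lie below WT values on both Nfkbie panels and on 4 of the 5 Nfkbia panels. They lie narrowly above WT values for Bcl3 and Rela, whose deposited values overlap. On the other 9 panels the groups overlap.

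Genes around the family were then read from lists, with each gene taken by its brightest probe set. At an unadjusted p under 0.05, 3.52% of all 18186 genes were lower and 4.1% higher, and the median difference of all genes was 0.018. No list gene passed the limma test after adjustment over all probe sets, and the smallest adjusted p outside the immediate early genes and the marker lists was 0.426.

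Other IkB-type genes had 0 of 3 at an unadjusted p under 0.05. Nfkbiz, whose product works in the nucleus on a subset of targets, differed by -0.85 (SE 0.41). Its log2 values were 6.85, 7.11 and 7.84 in the PU.1 KD pools, against 7.75, 9.01 and 7.56 in the WT pools, so WT pool 2 set the WT mean and the groups overlapped. Nfkbil1 differed by 0.28 (SE 0.14) and Nfkbid by 0.12 (SE 0.22). Among the 10 IKK subunits and kinases measured, 0 had an unadjusted p under 0.05 and the median difference was -0.11. The lowest p were those of Tbk1, a kinase of the interferon branch (-0.26, SE 0.16), and Map3k7, which activates IKK (-0.41, SE 0.26). Higher were Tab1 (0.10, SE 0.13) and Map3k14 (0.11, SE 0.20).

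Of 20 upstream adaptors and ligases, 1 was lower and 0 higher at an unadjusted p under 0.05, with a median of -0.013. The 1 gene was Irak1, a kinase that carries signals from IL-1 and Toll-like receptors. Its log2 values were 9.44, 9.76 and 9.79 in the PU.1 KD pools, against 10.19, 10.04 and 10.06 in the WT pools. These did not overlap, and the difference was -0.43 (SE 0.15) with a limma adjusted p of 0.655. Irak2 differed by -0.39 (SE 0.19), Traf2, an adaptor of TNF receptors, by 0.40 (SE 0.19), and Rbck1, a subunit of the linear ubiquitin ligase, by 0.30 (SE 0.15). Negative regulators beside the members had 0 of 13 past that p and a median of 0.0099. Tnip1, a partner of Tnfaip3, differed by -0.29 (SE 0.14), the deubiquitinase gene Cyld by -0.31 (SE 0.16), Otulin by 0.20 (SE 0.16) and Tax1bp1 by 0.22 (SE 0.18).

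Inducing receptors were lower in 7 of 10 cases, with a median of -0.35 and 3 lower at an unadjusted p under 0.05. Tnfrsf13c, the BAFF receptor gene of B cells, had log2 values of 5.73, 6.55 and 5.38 in the PU.1 KD pools, against 7.92, 7.83 and 7.09 in the WT pools. That difference was -1.73 (SE 0.34), with an adjusted p of 0.426 in limma. Tlr4, the receptor for lipopolysaccharide, differed by -0.57 (SE 0.19) and Tnfrsf1a, the main TNF receptor gene, by -0.35 (SE 0.13). Higher were Tnfrsf11a (0.24, SE 0.15) and Tnfrsf1b (0.22, SE 0.16). Of 6 B lymphoid markers 3 were lower at that p. Pax5 had a higher mean (0.11, SE 0.18) and Vpreb1 was near 0 (-0.075, SE 0.83). List means were 7.90, 7.58 and 6.60 in the PU.1 KD pools, against 8.09, 7.91 and 7.97 in the WT pools. The part of B lymphoid markers in the result was not tested.

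Textbook NF-kB targets outside the family had 3 of 30 lower and 0 higher at an unadjusted p under 0.05 and a median of -0.066. The chemokine gene Ccl3 had log2 values of 8.02, 7.31 and 5.87 in the PU.1 KD pools, against 8.24, 9.60 and 8.64 in the WT pools. It differed by -1.76 (SE 0.55, limma adjusted p 0.591). The dim chemokine gene Cxcl2 had 5.05, 4.95 and 4.92 in the PU.1 KD pools, against 5.42, 5.89 and 5.67 in the WT pools, a difference of -0.69 (SE 0.16, limma adjusted p 0.497). The cytokine gene Ltb differed by -0.78 (SE 0.27) and was named after its values were seen, like Tnfrsf1a among the receptors. WT pool 2 was highest for Ccl3, Cxcl2 and Ltb. Irf1 (0.26, SE 0.27) and Nos2 (0.19, SE 0.16) had the lowest p among genes with a higher mean. Tnf itself differed by 0.15 (SE 0.18) and Sod2 by 0.011 (SE 0.14), both named after their values were seen.

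**Figure D4:**
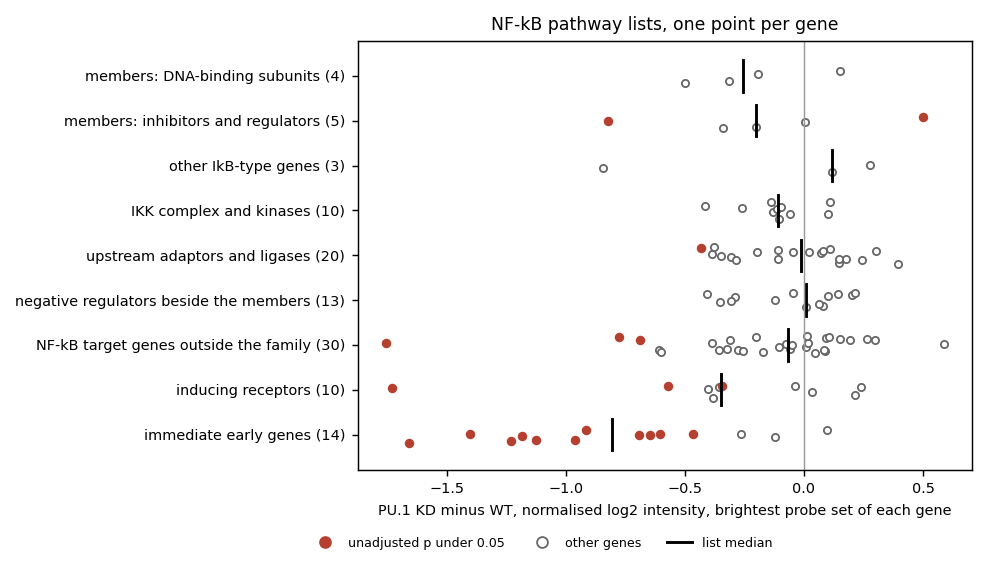
Difference of each gene of the pathway lists, PU.1 KD minus WT, in normalised log2 intensity, taken from its brightest probe set; red points have an unadjusted limma p under 0.05, black bars are list medians and the number of genes stands in brackets. Kinases, adaptors and negative regulators centre near 0 (medians -0.11, -0.013 and 0.0099), receptors at -0.35 and immediate early genes at -0.80.

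Immediate early genes, which cells switch on within minutes of a stimulus or of handling, were lower beside Nfkbia and Nfkbie. Of 14 such genes 11 were lower and 0 higher at an unadjusted p under 0.05, with a median of -0.80. Their list mean was 9.14, 8.87 and 8.60 in PU.1 KD pools 1, 2 and 3, against 9.64, 9.81 and 9.55 in WT pools 1, 2 and 3, so the groups did not overlap. The array order was the same as for Nfkbie at its ends, with WT pool 2 highest and PU.1 KD pool 3 lowest. Within the PU.1 KD pools it differed: the list mean was highest in pool 1, and Nfkbie was highest in pool 2 on both probe sets. PU.1 KD pool 1 was the lowest array on 3 of the 5 Nfkbia probe sets. Egr1 differed by -1.23 (SE 0.21) and Jun by -1.13 (SE 0.23). Atf3, which is also induced by stress, differed by 0.095 (SE 0.14). The part of immediate early genes in the lower Nfkbia and Nfkbie values was not tested.

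Markers of other cells were read beside the members. Megakaryocyte and platelet markers had list means of 9.09, 7.10 and 8.98 in the PU.1 KD pools, against 10.39, 9.13 and 10.19 in the WT pools. The mean was lower in 7 of 7 cases, where 8481 of all 18186 genes had a lower mean. At an unadjusted p under 0.05, 3 of the 7 were lower. Neutrophil and monocyte markers, at 11.47, 11.02 and 10.93 in the PU.1 KD pools and 11.57, 10.11 and 11.06 in the WT pools, had 2 of 10 higher and 0 lower at an unadjusted p under 0.05. Means of the HSC and progenitor list were 9.55, 9.46 and 9.50 in the PU.1 KD pools and 9.43, 10.29 and 9.60 in the WT pools. Of these 9 markers 2 were lower and 0 higher at that p, Tek (-0.99, SE 0.21) and Mecom (-0.82, SE 0.34). For Mecom the groups overlapped, with WT pool 2 highest at 10.02 and PU.1 KD pool 3 (8.84) above WT pool 3 (8.72). Mast cell, basophil and eosinophil markers had 2 of 6 lower, the eosinophil genes Epx (-3.69, SE 0.88) and Prg2 (-3.06, SE 0.74), and 2 higher, Cpa3 (2.05, SE 0.35) and Mcpt8 (1.71, SE 0.46). Dendritic cell markers had a lower mean in 6 of 6 cases, with 0 at that p. T and NK markers had 1 of 7 higher, the cytotoxic granule gene Gzmb (2.69, SE 0.53). WT pool 2 was highest on 8 of the 17 member probe sets, and both probe sets of Nfkbie and 1449731_s_at of Nfkbia were still lower at an unadjusted p under 0.05 without it. The part of these cells in the members' values was not tested.

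**Figure D5:**
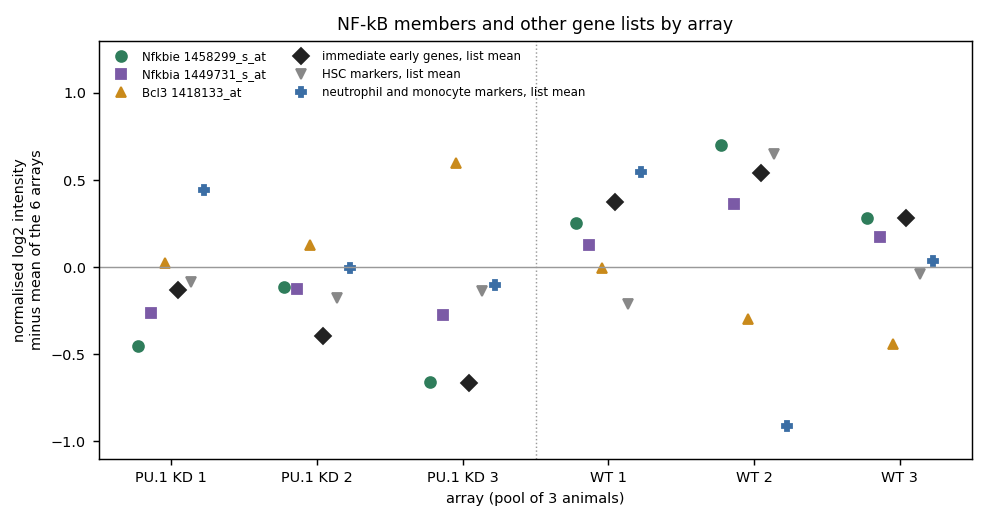
Normalised log2 intensity minus the mean of the 6 arrays (vertical axis) for Nfkbie, Nfkbia and Bcl3 and for 3 list means, by array, PU.1 KD left of WT. Each gene is shown by its probe set of smallest limma p, which for Nfkbia is 1449731_s_at and not its brightest. On Nfkbia probe set 1420089_at, not shown, the groups overlap. Nfkbie, Nfkbia and the immediate early genes lie above 0 in the 3 WT pools and below 0 in the 3 PU.1 KD pools, while HSC markers are highest and neutrophil and monocyte markers lowest in WT pool 2.

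Among 12008 other genes whose brightest probe set exceeded the median of all probe sets, the pattern closest to Nfkbia over the 6 arrays was sought by the root mean square distance of centred log2 values. The 5 nearest were Zfp619 (0.033), Nudt16l1 (0.040), Itprid2 (0.049), Cat, the catalase gene (0.055), and Clcn4, a chloride-proton exchanger gene (0.056). Zfp619 had log2 values of 6.84, 7.19 and 7.04 in the PU.1 KD pools, against 7.38, 7.50 and 7.30 in the WT pools. Of the 6 other members above that median, which Rel and Relb were not, Tnfaip3 came nearest, at rank 203 with a distance of 0.12, followed by Nfkb2 at rank 1750 and 0.20. Nfkbie, with its larger difference, stood at rank 6003, and Bcl3 at rank 10736 of 12008.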

How the data were processed

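The authors deposited 1 linear intensity value per probe set and array. How those were background-corrected and scaled, and with which software, is not given in the sources used here. Values under 1 were set to 1, log2(value + 16) was taken, and because array medians on that scale spread by 0.143, above a limit of 0.1, arrays were quantile normalised. The added 16 understates folds of dim probe sets. The limma package (version 3.58.1, under R 4.3.3) fitted all 44991 probe sets with moderated two-sided tests, adjusted by Benjamini-Hochberg at a threshold of 0.05. Single values also got an exact two-sided permutation test, which cannot go below 0.1. The fit was tested on simulated data. A probe set was named only where the platform annotation gives 1 symbol (34921 of 44991). Genes in lists were taken by the probe set of highest mean, and 108 of 118 pathway list genes were measured; the other 10 were not analysed here. Motifs were searched with Python 3.11.15 in RefSeq promoters of GRCm38.p6. Named genes were all members, Spi1, up to 2 genes per direction of smallest p in each list, and the 5 genes nearest to Nfkbia; others are marked. Members and lists were chosen with earlier results of these data known. Alternatives covered normalisation, pseudocount, filters, the variance model, array weights, a replicate block and each array left out. Nothing in the labels says that equal pool numbers share a batch, and pools of equal number were not treated as pairs. Each replicate is a pool of animals, and the number of arrays limits the precision. The limma p-values weigh a group difference against the spread between these pools, moderated over all probe sets.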

Additional observations from a re-analysis of the deposited data

How the results depend on the processing

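No member probe set passed the adjusted threshold under any of the 16 alternatives run, and the median of the member differences stayed below 0, from -0.37 above the 60th percentile (9 probe sets left) and -0.34 above the 40th (13 left) to -0.16 with a pseudocount of 64. The count of 6 member probe sets at an unadjusted p under 0.05 (5 lower, 1 higher) ranged from 3 to 6 when 1 array was left out, with 3 to 6 lower and 0 to 1 higher; the lowest values came without WT pool 2 and without PU.1 KD pool 3. With arrays centred on their medians 3 were lower. The count of 6 rose to 8 (7 lower) with a pseudocount of 64 and to 7 (6 lower) with a trend in the variance model. The count of higher ones was 0 with the values as deposited and with a replicate block, which left 5 lower. It was also 0 without WT pool 2, WT pool 3, PU.1 KD pool 2 or PU.1 KD pool 3. Above the 60th percentile it was 0 because the filter removed Bcl3, the 1 higher probe set, before the fit. Correlations of same-numbered pools' deviations were 0.23, 0.096 and -0.049, and the numbers were not taken as pairs. Leaving out 1 array gave 0 to 2 probe sets called over the whole table. Signs turned for 2 values near 0. For Nfkb2 on 1429128_x_at they became 0.0082 with median centring and 0.0057, 0.011 and 0.073 without WT pool 3, WT pool 2 and PU.1 KD pool 3, and leaving out 1 array gave -0.051 to 0.073. For Nfkbib on 1421266_s_at they became -0.072 as deposited, -0.042 with array weights, -0.11, -0.034, -0.0057 and -0.034 without WT pool 2, WT pool 3, PU.1 KD pool 1 and PU.1 KD pool 2, with a range of -0.11 to 0.16 over the left-out arrays, and -0.11 as the mean of its probe sets. The causes were not tested.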
